A study of Mus musculus with 12 samples.

Results

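Macrophage and leukocyte genes were followed across 4 genotypes of the mouse embryonic ventricle. The set was a list of 36 named genes out of 18193 measured, each represented by its brightest probe set, judged by mean log2 signal across the 12 arrays, and all 36 were in the table. The series asks how deficiency of the homeodomain factor Hopx and of the histone deacetylase Hdac2 affects the embryonic heart. RNA was taken from the cardiac ventricle at embryonic day 16.5 and measured on 12 single-colour arrays, 3 per genotype.

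The groups were wild type, Hdac2-null, which lacks Hdac2, Hopx-null, which lacks Hopx, and double-null, which lacks both. The labels describe the single and double nulls as knockouts and the arrays of a genotype as biological replicates from independent ventricles. Strain, the construction of the alleles and the relation between embryos are not given in the sources used here. No Cre, inducer or other agent is named for any group.

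Macrophages settle in the heart during development, where they take up dying cells and debris and lie close to vessels and muscle. They depend on signalling through the CSF1 receptor, and they read their surroundings through immunoreceptors that signal by way of small adaptors such as Fcer1g and Tyrobp. Their RNA is a minor part of the RNA of a whole ventricle, so a level measured there combines how many such cells were present with how much of the transcript each held. In these bulk samples fewer cells of a type and less RNA per cell cannot be told apart.

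The deposited signal is an intensity on a linear scale, and 82.5 units was used as a floor below which a signal was not read. The share of probe sets above the floor was 37.5% to 37.9% per array. The targeted genes followed the labels. Hdac2 was between 4442 and 5683 units where the gene was intact and at most 4.32 units where it was removed, and Hopx was between 8577 and 12240 units where intact and between 1656 and 2066 units where removed. Cardiomyocyte markers, among them the troponin gene Tnnt2, were above the floor for 8 of 8 genes on the list. Xist, a transcript of female cells, gave 4988 to 6130 units on 5 arrays (wild type 1 and 2 and replicate 1 of every null genotype) and no more than 22.2 units elsewhere. Wild type 1 had a Gapdh 3′ to 5′ log2 ratio, a measure of RNA integrity, of 1.33, and the remaining arrays had 0.84 to 1.07.

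Of the 36 genes, 15 were above the floor on all 12 arrays and 21 were above it on none, so the filter treated no genotype differently. The 15 were Csf1r, Fcer1g, Tyrobp, C1qb, Mrc1, Lyve1, Ctss, Mpeg1, Laptm5, Lyz1, Lyz2, F13a1, Pf4, Cd53 and Coro1a. By role they comprised the growth factor receptor, 2 of 6 immunoreceptor adaptors or receptors, 1 of 3 complement genes, 2 of 9 surface markers, 3 of 5 phagosome and lysosome genes, 4 of 4 secreted proteins and 2 of 4 genes shared by most leukocytes. Neither lineage transcription factor, Spi1 or Irf8, and neither cytoskeletal gene, Aif1 or Pstpip2, exceeded the floor.

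The label was compared with defining markers. Of 11 macrophage markers, 4 were above the floor (Csf1r, Mrc1, C1qb and Lyve1), and Adgre1, Cd68, C1qa, C1qc, Cd163, Folr2 and Fcgr1 were below it on all arrays. None of the 5 T cell markers in the table, the 4 natural killer cell markers, the 3 monocyte markers or the 5 thymus markers exceeded the floor. Members shared by most leukocytes that exceeded the floor were Cd53 and Coro1a. Of 7 dendritic cell markers Zbtb46 alone exceeded the floor, at 2299 to 3120 units, and of 5 B cell markers Ebf1 alone, at 2061 to 2919 units. Both are transcription factor genes that are also expressed outside blood cells. Mast cell and neutrophil markers were above the floor for 2 of 6 and 2 of 7 genes, and their values are given below.

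Promoter sequence was examined because many genes of myeloid cells carry purine-rich boxes read by the ETS factor PU.1, which Spi1 encodes. RefSeq promoter sequence on GRCm38.p6 was found for 27 of the 36 genes. The boxes GAGGAA and AGGAAGT were searched on both strands in the 250 bases before each transcription start. They share the letters AGGAA and can overlap. GAGGAA was in 15 of 27 promoters (55.6%) against 23.1% of all 27025 promoters in the table, and AGGAAGT in 9 of 27 (33.3%) against 7.8%. TATAAA, searched the same way, was in 4 of 27 (14.8%) against 13%. These counts describe letters and not binding.

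The windows below are from members that hold a box and whose values are described next. Mrc1 and Cd53 also held a box and are not shown. Fcer1g, Coro1a and Mpeg1 held neither box, and no promoter sequence was found for Csf1r, Tyrobp and Lyve1. Capitals mark a box, with ACTTCCT and TTCCTC being AGGAAGT and GAGGAA read on the other strand. The windows are C1qb at chr4:136886201-136886283 (minus strand), Pf4 at chr5:90772395-90772434 (plus), Laptm5 at chr4:130913248-130913313 (plus), F13a1 at chr13:37050275-37050340 (minus), Ctss at chr3:95526592-95526657 (plus), Lyz1 at chr10:117292932-117292998 (minus) and Lyz2 at chr10:117282336-117282402 (minus), each upstream of the annotated start.
C1qb: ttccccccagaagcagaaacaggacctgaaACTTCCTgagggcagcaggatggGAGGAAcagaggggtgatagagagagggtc
Pf4: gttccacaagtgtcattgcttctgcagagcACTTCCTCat
Laptm5: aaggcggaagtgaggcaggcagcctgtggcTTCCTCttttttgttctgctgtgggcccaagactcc
F13a1: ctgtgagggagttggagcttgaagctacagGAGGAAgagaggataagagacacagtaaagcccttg
Ctss: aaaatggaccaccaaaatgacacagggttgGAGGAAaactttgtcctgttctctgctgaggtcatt
Lyz1: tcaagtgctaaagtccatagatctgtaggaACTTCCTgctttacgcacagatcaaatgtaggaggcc
Lyz2: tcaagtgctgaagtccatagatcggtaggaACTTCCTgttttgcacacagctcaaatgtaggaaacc

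In C1qb and Pf4 the windows reach to the base before the start, and in Pf4 the boxes overlap in 1 run of letters. The Lyz1 and Lyz2 windows both lie from 130 to 64 bases before the start. They share the same base at 59 of 67 positions (88.1%). Over the whole upstream stretch the count was 152 of 250 (60.8%). Both counts were by position without alignment, so similar stretches shifted by a base count as different, and the shares are not compared. These 2 lysozyme genes are close copies, so their probe sets may share signal and the split between them is uncertain.

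Csf1r, the receptor for CSF1 on which macrophage survival depends, had a lower mean in every null group than in wild type. Its signal, given here and below in the order of replicates 1, 2 and 3, was 4744, 4352 and 4689 units on wild type 1 to 3, 4141, 3803 and 3730 in Hdac2-null, 3898, 4142 and 4281 in Hopx-null and, for double-null, 3591, 4085 and 3748. No array of a null group reached the lowest wild-type array, while the null groups overlapped one another. Against wild type, Hdac2-null differed by log2 -0.24 (SE 0.07), Hopx-null by -0.16 (SE 0.07) and double-null by -0.27 (SE 0.07). None passed limma's test over 9667 genes (adjusted p = 0.892, 1 and 0.594). All null arrays lay below all wild-type arrays in 5.69% of tested genes for Hdac2-null, 2.53% for Hopx-null and 8.61% for double-null. The share for all null groups at once was not counted. The other Csf1r probe set above the floor averaged 715.5 ± 92.4 units for wild type, 547.5 ± 54 for Hdac2-null, 637.9 ± 37.7 for Hopx-null and 576.3 ± 39.2 for double-null (SD, n = 3). On it the Hdac2-null and double-null arrays were again below all wild-type arrays, and the Hopx-null arrays were not. Hopx-null 1 and 3, at 626.5 and 679.9 units, exceeded wild type 2, at 622.5.

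Fcer1g is the signalling gamma chain of Fc receptors. Its signal was 789.3, 617.8 and 541.8 units in wild type, 464.1, 501.9 and 501.7 in Hdac2-null, 617, 577.5 and 608.8 in Hopx-null and, for double-null, 463.6, 604.3 and 480.4. The Hdac2-null arrays lay below all wild-type arrays, and the double-null arrays did not, because double-null 2 exceeded wild type 3. Against wild type, Hdac2-null differed by log2 -0.39 (SE 0.15, adjusted p = 0.893) and double-null by -0.32 (SE 0.15, adjusted p = 0.671). The double-null value was -0.18 without wild type 1 and -0.09 with arrays weighted by their quality.

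Tyrobp, the adaptor also known as DAP12, carries signals of receptors such as Trem2. It was at 425.4, 390.5 and 391.6 units in wild type, 293.3, 340.9 and 361.3 in Hdac2-null, 362.6, 361.7 and 365.8 in Hopx-null and, for double-null, 325.7, 374.3 and 330. All 9 null arrays were below the lowest wild-type array, and the share of all genes with this pattern was not counted. Hdac2-null differed from wild type by log2 -0.28 (SE 0.10, adjusted p = 0.893), and double-null by -0.23 (SE 0.10, adjusted p = 0.671), or -0.12 with array weights. The receptors Trem2, Fcgr1 and Fcgr2b reached at most 5.30 units and Fcgr3 lay between 21.9 and 50.4 units, all below the floor.

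**Figure D1:**
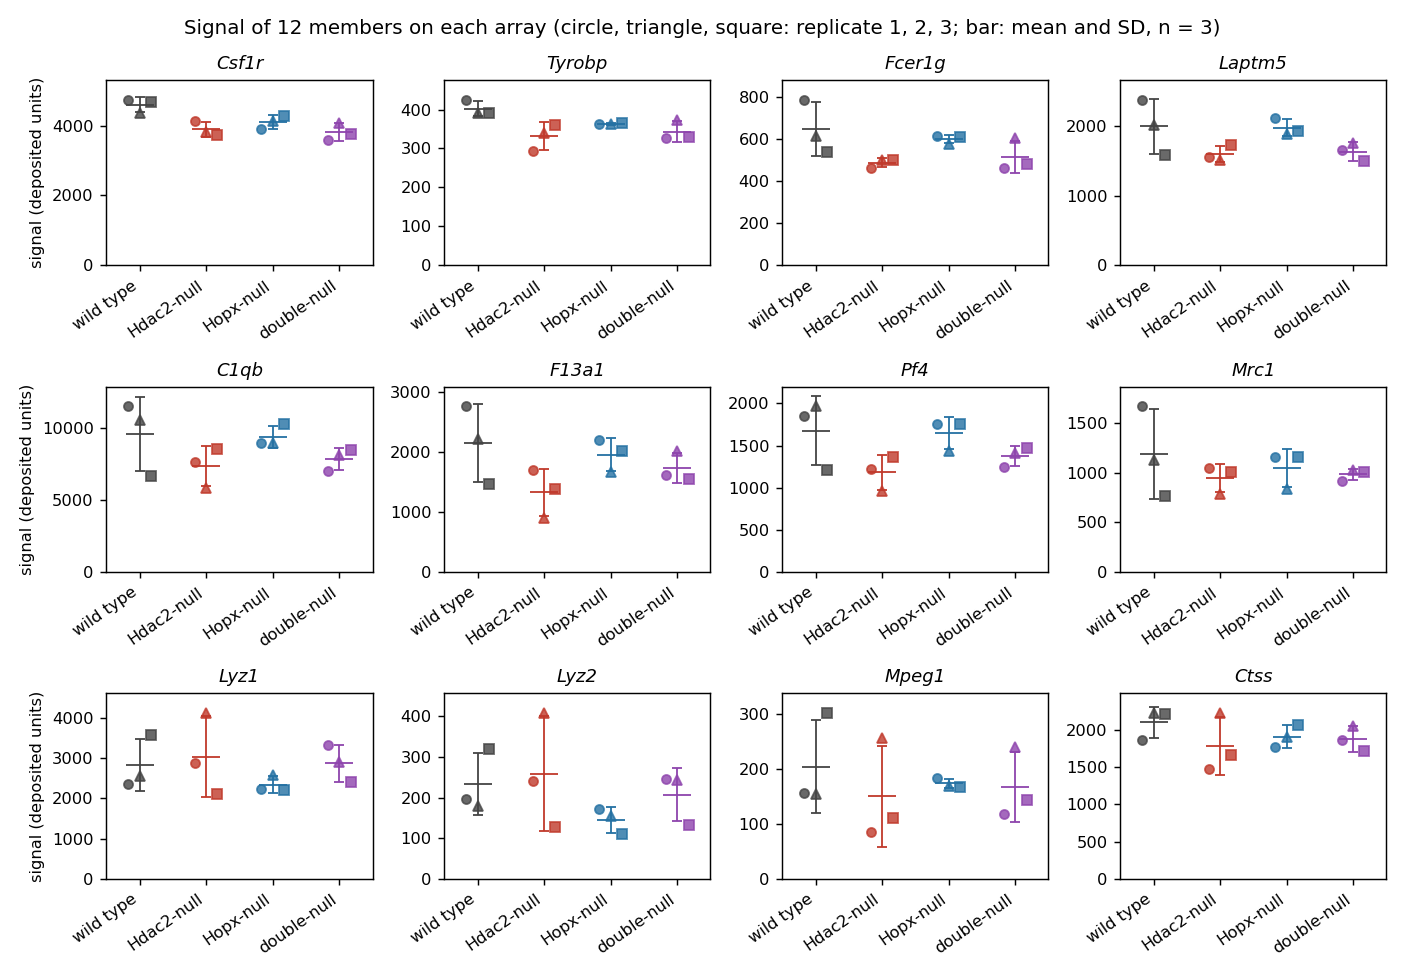
Signal of 12 of the 15 genes above the floor on each array, in deposited intensity units from 0, by genotype, with circle, triangle and square for replicates 1, 2 and 3 and bars for the mean and SD (n = 3). Csf1r and Tyrobp have every null array below every wild-type array, whereas C1qb, Mrc1 and the lysozymes show wild type 3 or Hdac2-null 2 apart from the other arrays of its group.

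Complement C1q is built of 3 chains, and of their genes C1qb alone exceeded the floor. C1qb was at 11480, 10550 and 6675 units in wild type, 7641, 5857 and 8540 in Hdac2-null, 8937, 8939 and 10260 in Hopx-null and, for double-null, 7019, 8089 and 8483. The groups overlapped because wild type 3 was the second lowest of the 12 arrays, and the Hdac2-null difference of log2 -0.36 (SE 0.19) had an adjusted p of 0.925. C1qa was at 4.383, 4.374 and 4.363 units in wild type, 4.373, 4.36 and 4.376 in Hdac2-null, 4.392, 4.486 and 4.365 in Hopx-null and, for double-null, 4.37, 4.379 and 4.361. C1qc was at 7.902, 6.755 and 4.274 units in wild type, 4.499, 4.495 and 4.59 in Hdac2-null, 4.595, 5.361 and 4.985 in Hopx-null and, for double-null, 4.569, 4.614 and 4.63. All these values lay far below the floor, so the probe sets gave no readable level of either chain. A further C1qb probe set averaged 3340 ± 810 units for wild type and 2602 ± 504 for Hdac2-null (SD, n = 3).

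Mrc1, the mannose receptor of tissue macrophages, was at 1666, 1128 and 766.3 units in wild type, 1044, 788.4 and 1006 in Hdac2-null, 1162, 831 and 1159 in Hopx-null and, for double-null, 919.2, 1022 and 1011. Wild type alone spanned the range of the other groups. Lyve1, a hyaluronan receptor of resident macrophages and also of lymphatic endothelium, was at 1067, 706 and 697.9 units in wild type, 690.3, 812.8 and 574.5 in Hdac2-null, 752.7, 414.5 and 665.5 in Hopx-null and, for double-null, 653.4, 793.2 and 675.5. Wild type 1 and Hopx-null 2 were its highest and lowest arrays, and the groups overlapped.

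Laptm5, a lysosomal membrane protein of blood cells, was at 2385, 2020 and 1594 units in wild type, 1556, 1516 and 1737 in Hdac2-null, 2127, 1894 and 1926 in Hopx-null and, for double-null, 1662, 1754 and 1497. The lowest Hopx-null array exceeded every array that lacked Hdac2, and wild type 3 lay among the arrays that lacked it. These values rest on 1 of 5 Laptm5 probe sets. The others lay between 4.15 and 5.48 units, below the floor on all arrays. Ctss, the protease cathepsin S, was at 1862, 2220 and 2210 units in wild type, 1471, 2220 and 1666 in Hdac2-null, 1762, 1901 and 2059 in Hopx-null and, for double-null, 1862, 2053 and 1714. Its groups overlapped throughout. Mpeg1, a pore-forming protein of phagosomes, ranged from 85.2 units on Hdac2-null 1 to 301.3 units on wild type 3.

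F13a1, the coagulation factor XIII A chain, is made by resident macrophages and megakaryocytes. It was at 2757, 2212 and 1459 units in wild type, 1693, 907.4 and 1380 in Hdac2-null, 2193, 1658 and 2016 in Hopx-null and, for double-null, 1618, 2023 and 1555. Hdac2-null 2 was its lowest array, and wild type 3 was inside the Hdac2-null range. Its Hdac2-null difference, log2 -0.69 (SE 0.26, adjusted p = 0.893), was the largest of the 15 genes in size.

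Pf4, platelet factor 4, is likewise shared by platelets and some tissue macrophages. It was at 1856, 1964 and 1205 units in wild type, 1225, 960.7 and 1369 in Hdac2-null, 1761, 1436 and 1758 in Hopx-null and, for double-null, 1249, 1407 and 1474. Wild type 3 was again inside the Hdac2-null range. The other megakaryocyte and platelet markers in the table, Itga2b, Gp9, Ppbp and Itgb3, were below the floor on all arrays.

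Lyz1 and Lyz2, the lysozymes, had another order. Lyz1 was at 2359, 2549 and 3559 units in wild type, 2874, 4109 and 2112 in Hdac2-null, 2227, 2572 and 2213 in Hopx-null and, for double-null, 3310, 2903 and 2394. Of the 3 Lyz1 probe sets, another lay between 1286 and 2431 units. The last stayed between 4.55 and 4.62 units, below the floor on all arrays, so the level of Lyz1 depends on the probe set chosen. Lyz2 was at 197.5, 180.4 and 319.8 units in wild type, 241.2, 407.6 and 126.6 in Hdac2-null, 172, 154.4 and 109.8 in Hopx-null and, for double-null, 245, 244.1 and 131.6. Hdac2-null 2 was the highest array for both genes, and the Hdac2-null and wild-type groups overlapped. Every Hopx-null array was below every wild-type array for Lyz2, with a difference of log2 -0.66 (SE 0.40, adjusted p = 1), or -0.40 without wild type 3.

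Cd53, a tetraspanin found on most leukocytes, was at 1414, 1225 and 1552 units in wild type, 1313, 1362 and 1053 in Hdac2-null, 1173, 1346 and 1467 in Hopx-null and, for double-null, 1249, 1524 and 1101, and all groups overlapped. Coro1a, an actin-binding protein of leukocytes, ranged from 83.9 to 170.8 units, close to the floor, and wild type 1 was its highest array. It was at 170.8, 113.1 and 110.5 units in wild type, 109.4, 108.7 and 83.9 in Hdac2-null, 110, 111.4 and 111.5 in Hopx-null and, for double-null, 110.4, 121 and 89.1. Most arrays thus had nearly the same value.

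The comparison of Hdac2-null with wild type addresses loss of Hdac2 alone. Of the 15 genes, 13 had a lower mean log2 signal in Hdac2-null ventricles, with a median of log2 -0.28 against -0.01 over all tested genes, of which 55.1% were lower. None passed limma's adjusted threshold of 0.05, which 0.0207% of all tested genes passed (smallest adjusted p among the 15 = 0.892). At an unadjusted p under 0.05, 6 were lower (Csf1r, Tyrobp, Fcer1g, F13a1, Pf4 and Laptm5), where 2.99% of all genes were. In 4 of the 15 (Csf1r, Fcer1g, Tyrobp and Coro1a) every Hdac2-null array was below every wild-type array, as in 5.69% of all genes. For Coro1a the nearest arrays of the groups were at 109.4 and 110.5 units. The 2 genes with a higher mean were Lyz1 (log2 0.07, SE 0.23) and Lyz2 (0.04, SE 0.40). Genes that vary together are not independent, and these shares carry no test.

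The comparison of Hopx-null with wild type addresses loss of Hopx alone. Here 12 of 15 genes were lower, with a median of log2 -0.14 against 0 over all genes. None passed the adjusted threshold in limma, which 0.0103% of all genes did. At an unadjusted p under 0.05 Csf1r alone was lower, where 1.43% of all genes were. In 3 genes, Csf1r, Tyrobp and Lyz2, the Hopx-null arrays were all below the wild-type arrays, as in 2.53% of all genes. For Csf1r this held on the brightest probe set and not on the other one above the floor. C1qb and Pf4 each had a difference of log2 0.01 (SE 0.19), while Lyve1 had -0.45 (SE 0.24), or -0.19 without Hopx-null 2.

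In double-null ventricles 14 of 15 genes were lower than in wild type, with a median of log2 -0.25 against -0.01 over all genes. None passed the adjusted threshold in limma, which 0.031% of all genes did. At an unadjusted p under 0.05, Csf1r, Fcer1g and Tyrobp were lower, where 4.3% of all genes were. Groups were separate for Csf1r and Tyrobp, as in 8.61% of all genes. The median was -0.14 without wild type 1 and -0.03 with array weights. Markers of other cell types were mixed, and 54.4% of all tested genes were lower. Lower here were 9 of 10 endothelial (median log2 -0.18), 5 of 8 fibroblast (median -0.05) and 4 of 8 cardiomyocyte markers (median 0). The counts were 3 of 4 for epicardial, 2 of 2 for erythroid and 0 of 2 each for neutrophil and mast cell markers. None passed the threshold. In Hdac2-null ventricles, where 55.1% of all genes were lower, 6 of 10 endothelial markers were (median -0.03). So were 8 of 8 fibroblast (median -0.10) and 6 of 8 cardiomyocyte markers (median -0.03). The part of these cells in the values of the 15 genes was not tested. The 3 comparisons share the wild-type arrays, so their values are set side by side and do not support one another.

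**Figure D2:**
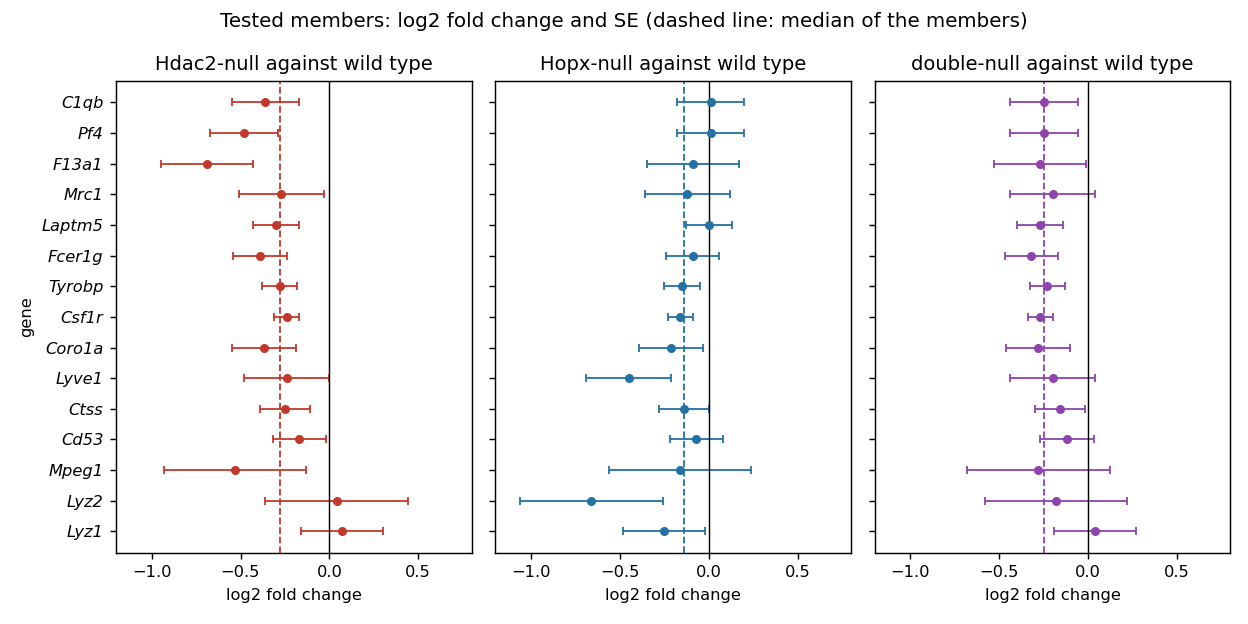
Log2 fold change of each of the 15 genes above the floor with its SE, for each null group against wild type, with the dashed line at the median of the genes and the solid line at 0. In Hdac2-null ventricles 13 genes lie left of 0 with a median of -0.28, and the Hopx-null and double-null medians are -0.14 and -0.25.

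The double-null group was also set against each single null. Against Hdac2-null, 12 of 15 genes had a higher mean and 3 a lower one (median log2 0.07), and F13a1 differed most, by log2 0.42 (SE 0.26, adjusted p = 0.56). Without Hdac2-null 2 the F13a1 value was 0.17, without double-null 2 it was 0.30, and without double-null 2 the median was -0.02. Of the 15 genes, 0 passed limma's adjusted threshold and 0 an unadjusted p under 0.05, against 0.0103% and 11.3% of all genes in either direction. Against Hopx-null, 12 of 15 were lower (median log2 -0.08), Laptm5 having the smallest p (log2 -0.28, SE 0.13, adjusted p = 0.614). Again 0 genes passed either threshold, against 0.0207% and 8.13% of all genes.

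With arrays grouped by the presence of Hdac2, 6 that lacked it against 6 that had it, 12 of 15 genes were lower where it was absent (median log2 -0.18 against -0.01 over all genes). The contrast averages the effect of Hdac2 loss with and without Hopx. None passed limma's adjusted threshold, which 0.0207% of all genes passed. At an unadjusted p under 0.05, 7 were lower, namely Csf1r, Laptm5, Fcer1g, Pf4, Tyrobp, F13a1 and C1qb, where 5.27% of all genes were. Csf1r differed by log2 -0.18 (SE 0.05, adjusted p = 0.393), or -0.11 with array weights, Laptm5 by -0.29 (SE 0.09, adjusted p = 0.452) and Fcer1g by -0.31 (SE 0.10, adjusted p = 0.483). In 0 of the 15 genes were all arrays without Hdac2 below all arrays with it, as in 0.269% of all genes.

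The interaction asks whether the 2 losses add on the log2 scale. Its value was above 0 for all 15 genes (median log2 0.21, against 0 over all genes), so the double-null difference from wild type lay above the sum of the single-null differences. The same wild-type arrays enter all 15 values. None passed limma's adjusted threshold (smallest adjusted p = 0.942) and none an unadjusted p under 0.05, against 0% and 4.18% of all genes. The values of Lyve1 and F13a1 were log2 0.49 (SE 0.33) and 0.51 (SE 0.36). Without Hopx-null 2 Lyve1 was at 0.23 and without wild type 1 at 0.29, and its second probe set gave 0.16. That probe set was above the floor on 5 arrays, none of them double-null, so most of its values were raised to the floor. F13a1 was at 0.26 without Hdac2-null 2 and at 0.31 and 0.77 without wild type 1 and wild type 3. Without wild type 1 the median was 0.13.

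Xist and the Gapdh ratio were set beside these differences. Wild type 1 was the highest array for 9 of the 15 genes and had the highest Gapdh ratio. Without wild type 1 the Hdac2-null median was log2 -0.21, the Hopx-null median was -0.06, and Fcer1g differed by -0.24 in Hdac2-null ventricles. Wild type had 2 arrays high in Xist and each null group 1. With Xist as a covariate the Hdac2-null median was -0.31 and Csf1r differed by -0.25 (adjusted p = 1).

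Whether the genes move together, as a change in the share of macrophages would make them, was described by pairwise Pearson correlation of log2 signal over the 12 arrays, which share RNA, array and normalisation. The median r over the 105 pairs of the 15 genes was 0.35, and 36.2% of pairs exceeded 0.5, against a median of 0.01 and 10.1% over all pairs of tested genes. With genotype means removed the member median was 0.18 and 28.6% of pairs exceeded 0.5, against 0.02 and 13.6%. Of the member pairs 25 were negative, or 35 with genotype means removed, and r ran from -0.83 to 0.95. Pairs of both signs were thus present within the set.

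Several runs of genes varied together. C1qb followed Pf4 (r = 0.95), F13a1 (0.84), Mrc1 (0.82) and Laptm5 (0.82), and Fcer1g followed Laptm5 (0.90) and Tyrobp (0.85). Mpeg1 followed Ctss (0.81), and Lyz1 followed Lyz2 (0.92), which may share signal. C1qb opposed Lyz1 (-0.83) and Lyz2 (-0.72). Each gene was also set against the mean of the other 14: r was 0.85 for Coro1a, 0.84 for Fcer1g, 0.75 for Tyrobp and 0.72 for Csf1r, and 0.01 for Lyz2 and -0.09 for Lyz1. Coro1a was close to the floor, with wild type 1 at 170.8 units and its next highest array at 121.

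**Figure D3:**
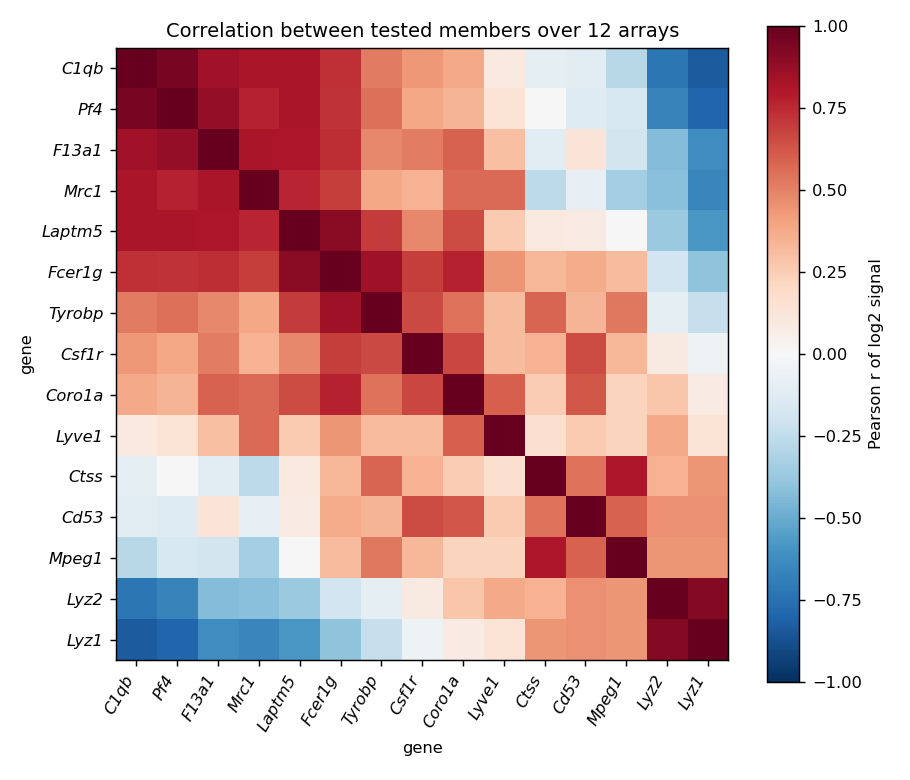
Pearson r of log2 signal between the 15 genes above the floor over the 12 arrays, from -1 in blue to 1 in red, ordered by r with C1qb. The upper left corner from C1qb to Fcer1g is red, with C1qb and Pf4 at 0.95, and the lysozymes are blue against C1qb, at -0.83 for Lyz1.

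Wild type 3 and Hdac2-null 2 were the lowest of their group for C1qb, Pf4, F13a1 and Mrc1 and the highest for Lyz1, Lyz2 and Mpeg1. Averaged over the 15 genes, the deviation from each gene's own mean was log2 0.31, 0.11 and 0.09 on wild type 1 to 3, -0.14, -0.01 and -0.23 in Hdac2-null, 0.05, -0.08 and 0.03 in Hopx-null, and -0.1, 0.13 and -0.17 in double-null ventricles. The wild-type arrays were above all Hdac2-null arrays in this average, and double-null 2 was above 2 of the wild-type arrays. Without wild type 3 and Hdac2-null 2 together, a choice made after the values were seen, the Hdac2-null median was -0.42.

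**Figure D4:**
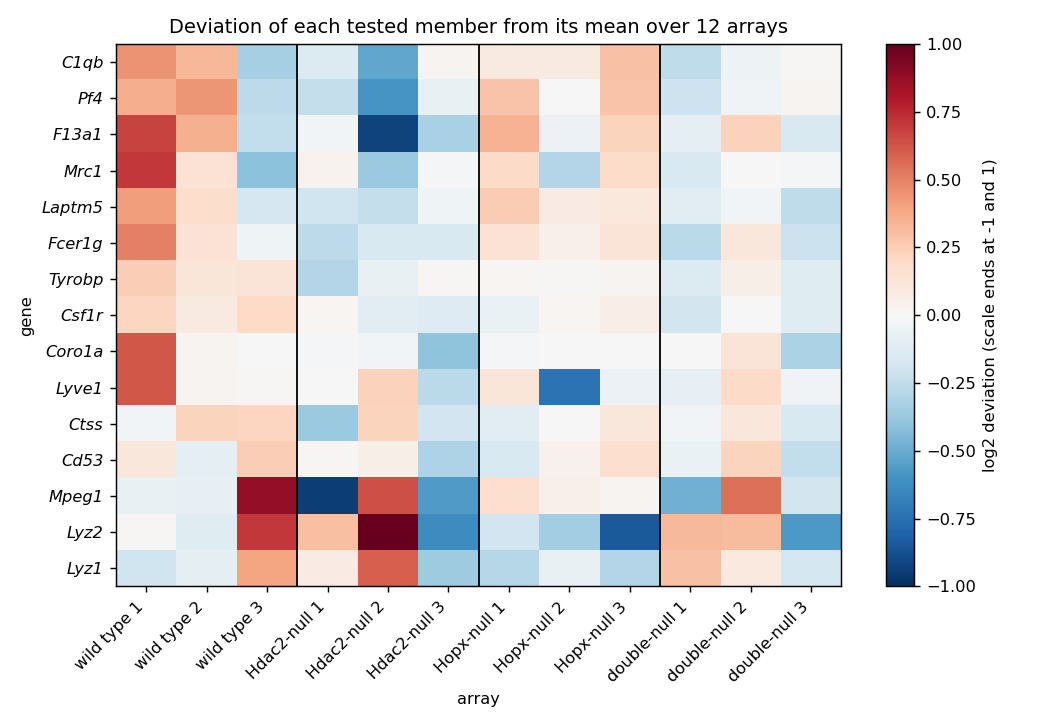
Deviation of each of the 15 genes from its own mean over the 12 arrays on the log2 scale, with colour ending at -1 and 1 and black lines between genotypes. Wild type 1 is red for C1qb, F13a1, Mrc1, Coro1a and Lyve1, and Hdac2-null 2 is blue for C1qb, Pf4 and F13a1 and red for Mpeg1, Lyz2 and Lyz1.

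Markers of other blood cells were read on the same arrays. The neutrophil genes S100a8 and S100a9, subunits of calprotectin, had higher means in Hdac2-null ventricles, the opposite direction to most macrophage genes. S100a8 was at 660, 587.7 and 1044 units in wild type, 1756, 2762 and 1077 in Hdac2-null, 579.9, 890.4 and 242.6 in Hopx-null and, for double-null, 765.4, 873.4 and 1254. Every Hdac2-null array exceeded every wild-type array, and the difference was log2 1.23 (SE 0.46, adjusted p = 0.893). The nearest arrays of the groups were at 1077 and 1044 units. The share of all genes with every Hdac2-null array higher was not counted. Hdac2-null 2 was the highest array for S100a8 as for Lyz1 and Lyz2, genes that neutrophils also express. The neutrophil granule genes Mpo, Elane, Camp, Ngp and Ltf were below the floor on all arrays, and the part of neutrophils in the lysozyme values was not tested.

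The mast cell protease gene Cpa3 was at 1058, 1068 and 525.6 units on the wild-type arrays and 863.9, 357.9 and 1016 on those of Hdac2-null. Hopx-null had 864.3, 879.6 and 282.8 units and double-null 782, 839.3 and 1059. Wild type 3 and Hdac2-null 2 were the lowest of their groups, as for C1qb. Hopx-null 3, the lowest array for Cpa3, was instead the highest Hopx-null array for C1qb, at 10260 units. Summed over the 11 macrophage markers, the signal ran from 12880 to 19010 units in wild type, 11300 to 13890 in Hdac2-null, 14370 to 16410 in Hopx-null and 12220 to 14040 in double-null. The Hdac2-null and wild-type ranges overlapped. Of the 11 markers 7 were below the floor, and C1qb alone gave 6675 to 11480 of the wild-type units, so the sum largely repeats C1qb. The summed mast cell signal ran from 760.6 to 1502 units in wild type, and its part in the differences above was not tested.

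Erythroid markers and the liver marker Ttr also differed in mean between Hdac2-null and wild type. The embryonic globin gene Hbb-y was at 7.66, 4.85 and 122.7 units in wild type and 1209, 985.4 and 218.8 in Hdac2-null. These groups did not overlap, and the share of all genes separated in this direction was not counted. With signals raised to the floor the difference was log2 2.76 (SE 0.69, adjusted p = 0.892). Over the 2 tested erythroid genes the median was log2 1.55. Of the 3 tested liver markers, Ttr had a higher mean in Hdac2-null (log2 0.53, SE 0.23, adjusted p = 0.925). Ttr exceeded the floor only on Hdac2-null 2 and 3 and Hopx-null 1, at 109.6, 188 and 104.8 units. Its wild-type arrays were all below the floor, at 29.8, 12.4 and 27.6 units. With signals raised to the floor, its difference from wild type could therefore not be negative. Alb and Afp exceeded it on Hdac2-null 3 alone, at 176.2 and 204.6 units. Both entered the test only through that array, so their higher mean was fixed by the filter. The part of blood or liver RNA in the members' values was not tested.

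The wider pathways were read from lists. Of 14 CSF1 receptor ligand and signalling genes in the table, 6 were tested, and 3 were lower and 3 higher in Hdac2-null ventricles (median log2 0.02). Below the immunoreceptors 4 of 16 genes were tested, and 2 were lower and 2 higher (median log2 0). The gene with the smallest p was the phospholipase gene Plcg2, at 174.4 ± 33.9 units for wild type and 109.5 ± 19 for Hdac2-null (SD, n = 3, log2 -0.67, SE 0.17, adjusted p = 0.892). Of 3 tested complement genes 2 were lower, with a median of log2 -0.02. No gene of these or the following lists passed limma's adjusted threshold in any of the 7 comparisons.

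Among lysosomal protease and lipid genes 11 of 13 were tested, of which 5 were below wild type in Hdac2-null and 11 in double-null. Ctsc, the protease cathepsin C, averaged 636.7 ± 27.8 units for wild type and 611.3 ± 35.4 for Hopx-null, against 448.4 ± 41.4 for Hdac2-null and 455 ± 13.9 for double-null (SD, n = 3). With arrays grouped by Hdac2 it differed by log2 -0.47 (SE 0.07, adjusted p = 0.0737), short of the threshold. Ccl9, a chemokine of myeloid cells, averaged 278.1 ± 44.2 units for wild type and 136.5 ± 44.3 for Hdac2-null (SD, n = 3, log2 -1.07, SE 0.33, adjusted p = 0.893).

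The 21 genes below the floor were read separately. In 12 of them no array exceeded 6 units, and all their values lay between 4.15 and 5.30 units, near the lowest values of the table. The other 9, with at least 1 array at 6 units or more, were Adgre1, Cd68, C1qc, Pstpip2, Ptprc, Cd163, Fcgr3, Irf8 and Cd52. Irf8, a transcription factor of the myeloid lineage, was at 44.2, 58.9 and 41.3 units in wild type, 29.4, 36.2 and 38.8 in Hdac2-null, 45.3, 52 and 41.8 in Hopx-null and, for double-null, 42.9, 43.4 and 35.5. Its Hdac2-null arrays were below all its wild-type arrays. Spi1, which encodes PU.1, was between 4.71 and 4.77 units.

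Without the floor, 27 of the 36 genes reached the filter and 24 of them were lower in Hdac2-null ventricles (median log2 -0.36 against -0.02 over all 12433 genes). Adgre1, the macrophage surface marker F4/80, and Pstpip2, an actin-regulating adaptor, passed limma's threshold, as did 0.0322% of all genes. The Adgre1 call was lost with the replicate number as a block (adjusted p = 0.0645), with array weights (0.102) and without the intensity trend (0.0667). Adgre1 was at 16.7, 16 and 18.3 units in wild type, 9.96, 9.50 and 9.67 in Hdac2-null, 10.7, 13.2 and 13.6 in Hopx-null and, for double-null, 12.4, 15.3 and 14.6. Its Hdac2-null arrays were below all others and its wild-type arrays above all others, and the Hdac2-null difference was log2 -0.81 (SE 0.10, adjusted p = 0.0429).

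Pstpip2 was at 10.4, 10.3 and 9.31 units in wild type, 6.10, 5.79 and 6.55 in Hdac2-null, 10.8, 9.32 and 11.1 in Hopx-null and, for double-null, 9.17, 8.41 and 9.38. The Hdac2-null arrays were again the lowest, and the difference from wild type was log2 -0.71 (SE 0.08, adjusted p = 0.0189). With arrays grouped by Hdac2, Pstpip2 was the only one of the 27 genes to pass, at log2 -0.46 (adjusted p = 0.046), and 0.0241% of all genes passed. This call was lost with the replicate block (adjusted p = 0.0772), quantile normalisation (0.0812), Xist as a covariate (0.0902) and no intensity trend (0.0593). Its other probe sets were between 4.45 and 6.48 units. The 3 Hdac2-null arrays also had low values across unexpressed genes. Of 8526 genes never above the floor, 15.5% had all Hdac2-null arrays below all wild-type arrays, against 0.739% for Hopx-null and 1.33% for double-null. Of the 21 members 13 did. Among genes that never reached 6 units these were 9 of 12 members against 16.6% of all such genes, and among those that did, 4 of 9 members against 11.5% of 1816 genes. Values below the floor are described here and not read as levels. The calls also depended on single arrays. With each array left out in turn, the adjusted p of Adgre1 ran from 0.0173 to 0.323, and it missed the threshold without any 1 wild-type or Hdac2-null array, Hopx-null 2 or 3, or double-null 2 or 3. That of Pstpip2 ran from 0.0116 to 0.156 in Hdac2-null and missed it without wild type 1 or 2 or Hdac2-null 1 or 2. By Hdac2 it ran from 0.02 to 0.216 and held only without wild type 3 or Hopx-null 2.

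**Figure D5:**
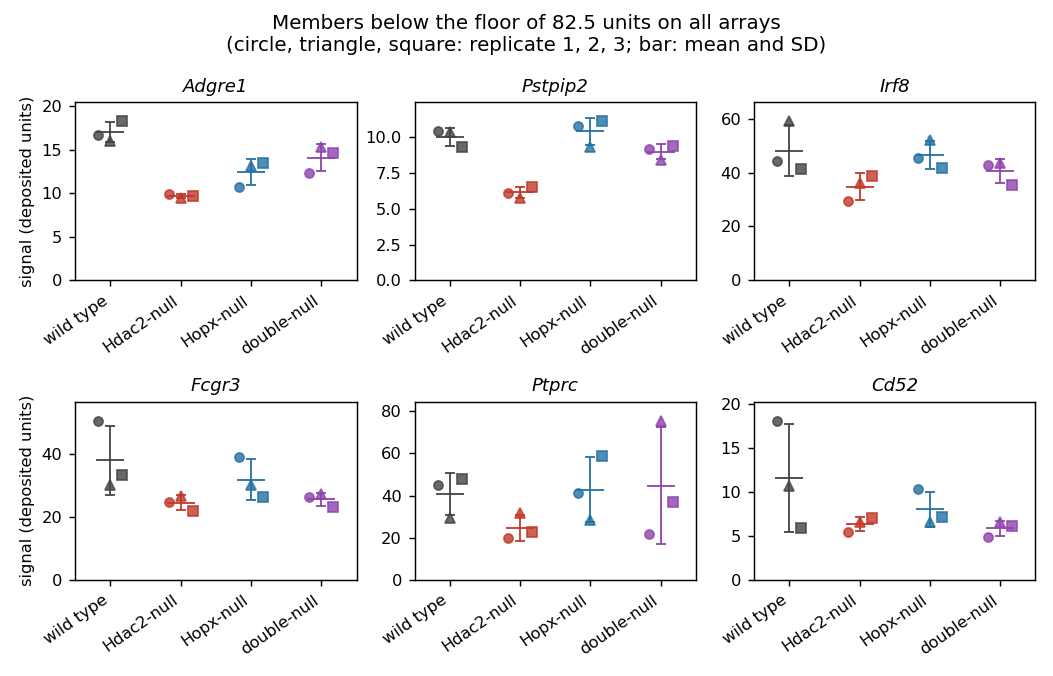
Signal of 6 of the 21 genes below the floor of 82.5 units on each array, in deposited intensity units from 0, with circle, triangle and square for replicates 1, 2 and 3 and bars for the mean and SD (n = 3). Adgre1 and Pstpip2 have their Hdac2-null arrays at 9.50 to 9.96 and 5.79 to 6.55 units, below all wild-type arrays, while Ptprc and Cd52 overlap between groups.

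Outside the list, the genes whose signal most resembled the mean of the 15 were described by Pearson r over the 12 arrays. Pdxp (r = 0.86), Akap7 (0.84), Tlcd3a (0.84) and Pgk1 (0.83) were the only 4 of 9652 genes above 0.8, with 1700052K11Rik (0.80), Jdp2 (0.78), Zfp87 (0.78), Il10rb (0.77), Lsm12 (0.77) and Map2k1 (0.77) next. Wild type 1, which had the highest Gapdh ratio, was the highest array for each of these 10 genes, as for most of the 15. Pdxp was at 2567 units on it. These values describe resemblance over arrays that share RNA and hybridisation.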

How the data were processed

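Per the labels' protocols, Trizol-extracted total RNA was reverse transcribed from a poly(T) primer, amplified linearly and labelled with biotin. The values deposited by the authors are linear intensity values, 1 for each of 45101 probe sets on an array. MAS5 is named, without a version, in the submitters' processing notes. Which method produced the table is not settled by the sources used here, so the values were used as deposited. Probe sets of several genes, of no gene and controls were left out, and 34741 probe sets matched GRCm38.p6 gene names. Signals were raised to a floor of 82.5 (a factor of 0.1 on the arrays' average 2% trimmed mean) before log2 transformation. Genes at or above the 40th percentile (4.76 units) and not at the floor on all arrays were tested, 9667 in all.

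limma 3.58.1 (R 4.3.3) fitted a coefficient for each genotype on the 12 arrays together (8 residual degrees of freedom, intensity trend), with Benjamini-Hochberg adjustment within each of 7 comparisons and a threshold of 0.05. The fit was tested on simulated data. With 3 arrays per group log2 fold changes had a median SE of 0.11. No 2 arrays held identical values. The level of one probe set was not compared with that of another, and a sum over a marker list compares arrays, not genes.

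The listed genes, the marker lists and the tests were chosen with earlier results of these data known. Signals on every array were given for Csf1r, the immunoreceptor adaptors, the complement and lysozyme genes, genes passing a threshold, the 3 with the smallest p in each comparison and the brightest of each role. S100a8, Cpa3, Hbb-y, Ttr, Alb, Afp, Zbtb46, Ebf1, Plcg2, Ctsc and Ccl9 were named after their values were seen. Same-numbered arrays deviated together in wild type and Hopx-null (r across genes of 0.42, 0.42 and 0.15) and in Hdac2-null and Hopx-null (0.21, 0.17 and 0.12), and not in every pair of the other groups. Alternatives covered the floor, filter, normalisation, probe set, arrays left out, weights, trend, replicate block and Xist.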

Additional observations from a re-analysis of the deposited data

How the results depend on the processing

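In each of the 7 comparisons 0 of the 15 genes passed under any alternative that kept a floor. Without the floor 2 genes, Adgre1 and Pstpip2, passed in Hdac2-null against wild type and 1, Pstpip2, by Hdac2. The labels do not say that same-numbered arrays were paired. With the replicate number as a block, the medians were -0.28 in Hdac2-null, -0.14 in Hopx-null and -0.25 in double-null against wild type. The block changed no call with the floor. Without the floor it took Adgre1 to an adjusted p of 0.0645 and Pstpip2 by Hdac2 to 0.0772.

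Leaving out 1 array at a time, the medians ran from -0.34 to -0.21, -0.22 to -0.06 and -0.30 to -0.14 in Hdac2-null, Hopx-null and double-null against wild type, -0.02 to 0.12 and -0.16 to -0.05 in double-null against Hdac2-null and Hopx-null, -0.22 to -0.16 by Hdac2 and 0.13 to 0.25 for the interaction. With array weights the double-null median against wild type was -0.03, and without wild type 3 and Hdac2-null 2 together the Hdac2-null median was -0.42. Ctss in double-null against Hdac2-null ran from -0.04, without Hdac2-null 1, to 0.26. The median member correlation ran from 0.28 to 0.41. The cause of these shifts was not tested. Over all genes, calls in double-null against Hdac2-null ran from 1 to 951, the latter with array weights, calls by Hdac2 from 2 to 27 and in double-null against wild type from 2 to 8, both highest without wild type 3. Array number and the floor limit these data: genes below 82.5 units have no readable level.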
